A study of Mus musculus with 8 samples.

Results

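D2 medium spiny neurons (MSNs) of the mouse striatum were taken as the cells that the authors' annotation of the striatal libraries names D2, and their unique molecular identifiers (UMIs) were read from the matrix of each cell's own library. They numbered 2451 of 14690 annotated striatal cells. The libraries came from C57BL/6N males, 8 to 10 weeks old by the labels (the methods give an older age). WT littermates were compared with Setd1a+/- mice, which carry 1 frameshift allele, made with CRISPR-Cas9 in the exon ahead of those for the SET domain. Each genotype had 2 striatal libraries of 10x Chromium single-cell RNA, each from a pooled pair of mice. The labels call the tissue nucleus accumbens and the study describes it as dorsal plus ventral striatum, so the D2 cells cannot be assigned to 1 of these regions from the labels.

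D2 MSNs are GABAergic projection neurons that start the indirect pathway of the basal ganglia. Their D2 dopamine receptor couples to inhibitory G proteins and lowers cAMP, the adenosine receptor encoded by Adora2a raises it, and both act on the phosphatase regulator DARPP-32. They release enkephalin, made from the Penk precursor, whereas the D1 MSNs of the direct pathway express the D1 receptor, dynorphin and substance P. Drugs for psychosis act on the D2 receptor.

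WT replicates 1 and 2 held 676 and 752 D2 cells, and Setd1a+/- replicates 1 and 2 held 335 and 688. D2 cells held a median of 3499 UMIs in WT 1, 4093 in WT 2, 3785 in Setd1a+/- 1 and 2740.5 in Setd1a+/- 2. The D2 sums held between 1280027 and 3098086 UMIs per library. Every D2 cell had at least 800 genes and under 10% mitochondrial UMIs. No D2 cell exceeded 3 times the median UMIs of its library, and 40 of 2451 held a UMI of Drd1. Library pairs shared 10 to 24 cell barcodes over all types and 0 or 1 over D2 cells. In 13 of 9424 genes both replicate 1 libraries were over 4-fold above both replicate 2 libraries, the oligodendrocyte genes Mobp and Mog among them. Levels are given as CPM, the UMIs of a gene scaled by the total UMIs of the summed cells. The 8 oligodendrocyte markers summed to 803 and 887 CPM in D2 cells of the replicate 1 libraries and to 186 and 117 in replicate 2, all 8 being higher in replicate 1, and to 0.728% of their level in oligodendrocytes on average.

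The 3 markers that name the type were highest in D2 cells in all 4 libraries. Drd2, the D2 receptor (GRCm38 chr9:49340627-49408177, + strand), was at 186, 174, 207 and 159 CPM in WT 1, WT 2, Setd1a+/- 1 and Setd1a+/- 2, against a mean of 7.56 in D1 MSNs. Adora2a, which encodes an adenosine receptor (chr10:75316877-75334784, +), was at 582, 613, 557 and 486 CPM in the same order, against 9.79 in D1 MSNs. Penk, the enkephalin precursor (chr4:4133531-4138819, −), was at 5784, 5788, 6220 and 4959 CPM, against 487 in D1 MSNs. After D2 cells the highest mean of each marker was in microglia, at 21.8, 75.9 and 766 CPM for Drd2, Adora2a and Penk. Since the cells were clustered on such genes, these levels describe the type and were not tested.

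**Figure D1:**
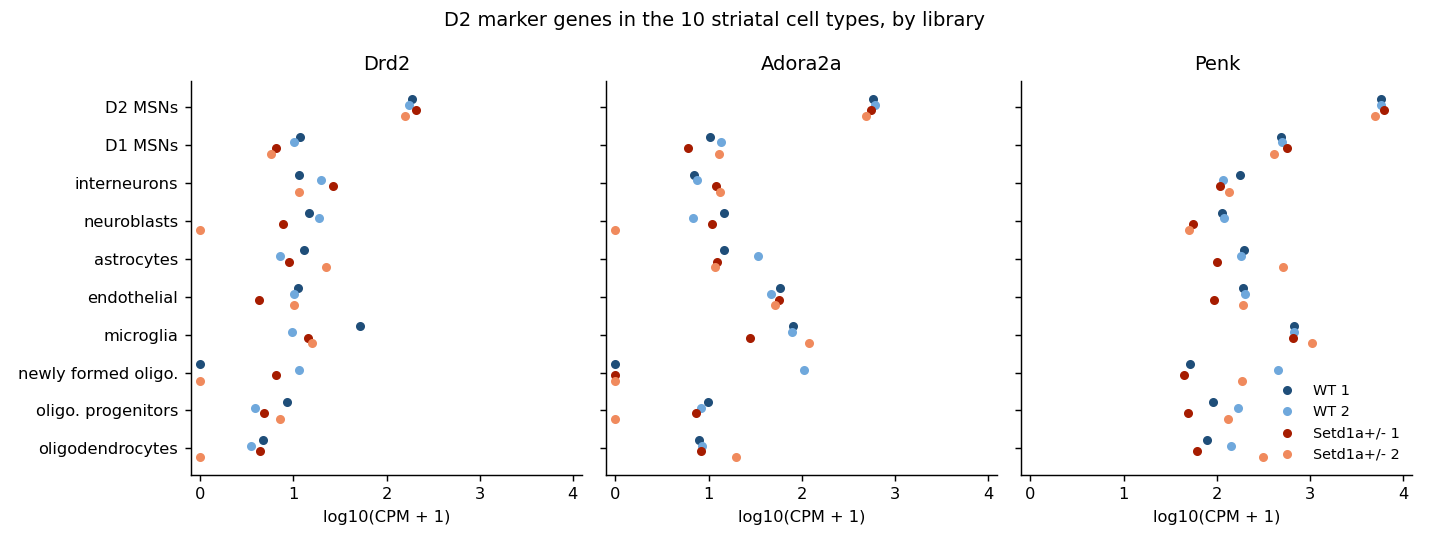
Level of Drd2, Adora2a and Penk in the 10 annotated striatal cell types, as log10(CPM + 1) on the x axis, with 1 point per library (WT blue, Setd1a+/- red and orange). In each panel the 4 points of the D2 MSNs lie to the right of those of every other type.

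In single cells, a Drd2 UMI was found in 33.4 to 52.8% of the D2 cells of a library, an Adora2a UMI in 69.8 to 82.8% and a Penk UMI in 95.8 to 98.5%. With each cell thinned to 2000 UMIs, which left out 24 to 75 shallower D2 cells per library, the shares were 24.5 to 34.2%, 57.1 to 65.7% and 94.6 to 97.7%. Oligodendrocytes, which should lack these transcripts, held a UMI of Drd2 in 0.768%, of Adora2a in 1.75% and of Penk in 16.5% of cells. A UMI of at least 1 of the 3 markers was present in 2430 of 2451 D2 cells (99.1%). Drd1, the D1 receptor, was detected in 1.63% of D2 cells against 1.32% of oligodendrocytes and 36.2% of D1 MSNs, so its share in D2 cells was close to that of a type that lacks it. Tac1, the substance P precursor, was detected in 25.5% of D2 cells and 13.7% of oligodendrocytes, whose median cells had 2035 to 2124 UMIs. After thinning, the shares were 17.1, 21.2, 15.2 and 20.9% in the D2 cells of WT 1, WT 2, Setd1a+/- 1 and Setd1a+/- 2 and 10.8, 16.0, 6.85 and 20% in oligodendrocytes, of which 40 cells were deep enough in Setd1a+/- 2, so the gap was narrower at equal depth and nearly absent in that library.

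D2 cells made up 15.5% of annotated cells in WT 1 (95% Wilson interval 14.5 to 16.6), 18.6% in WT 2 (17.4 to 19.8), 8.83% in Setd1a+/- 1 (7.97 to 9.77) and 27.6% in Setd1a+/- 2 (25.9 to 29.4). The Setd1a+/- libraries lay on either side of both WT libraries. The share was 17.1 ± 2.20% in WT and 18.2 ± 13.3% in Setd1a+/- (SD, n = 2 libraries; two-sided exact permutation p = 1, where 0.333 is the smallest that 2 against 2 libraries allow). Of the D1 and D2 MSNs alone, 39.7, 36.9, 36.5 and 40.6% were D2 in the same library order, with a mean of 38.3 ± 2.01% in WT and 38.5 ± 2.88% in Setd1a+/- (exact permutation p = 1). The intervals cover counting error only.

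Few genes separated D2 from D1 MSNs. Of 6341 genes at 20 CPM or more in either type, 18 (0.284%) were at least 2-fold higher in D2 in all 4 libraries and 37 (0.584%) at least 2-fold lower. Counts under 3 UMIs in a library were set to 3 for these ratios, and values below are mean log2 ratios of D2 to D1 ± SD over the 4 libraries, with no test. The receptors among the 12 leading genes were Adora2a (5.92 ± 0.64), Drd2 (4.66 ± 0.57), the orphan receptor Gpr6 (3.59 ± 0.45), the purine receptor P2ry1 (3.11 ± 0.48) and the kainate receptor subunit Grik3 (2.99 ± 0.45). Penk (3.55 ± 0.06) had the narrowest spread of them. The enzymes were Upb1 (5.14 ± 0.72), the last enzyme of pyrimidine breakdown, adenosine kinase Adk (2.02 ± 0.44), the phosphoinositide phosphatase Fig4 (1.61 ± 0.15) and the nitric oxide receptor subunit Gucy1a1 (1.71 ± 0.21). The adaptor Skap2 (1.77 ± 0.48) and the sarcoglycan Sgcz (1.53 ± 0.19) completed the 12.

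Among the 12 genes that led in the other direction were the neuropeptides of the D1 type. Pdyn, the dynorphin precursor, stood at 18.8, 9.04, 6.25 and 13.0 CPM in the D2 cells of WT 1, WT 2, Setd1a+/- 1 and Setd1a+/- 2 and at a mean of 380 in D1 MSNs (log2 ratio −5.11 ± 0.59). Tac2, the neurokinin B precursor, had 6 UMIs over all D2 cells and 1012 over D1 cells. Tac1 was at 475 CPM in D2 and 3740 in D1 MSNs, a ratio of 7.99 in favor of D1. The transcription factors Isl1 and Ebf1 averaged 1.66 and 2.43 CPM in D2 cells against 80.6 and 32.8 in D1 MSNs, and Drd1 averaged 5.01 against 152. The other leading genes were Adarb2, a member of the RNA editing deaminase family, the sugar transporter Slc35d3, the GDNF receptor Gfra1, the adhesion genes Lingo2 and Cntnap3, and Prok2, with log2 ratios between −4.66 and −3.31. Foxp2, a transcription factor of the MSN list, was also lower in D2, at 51.1 CPM against 320.

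**Figure D2:**
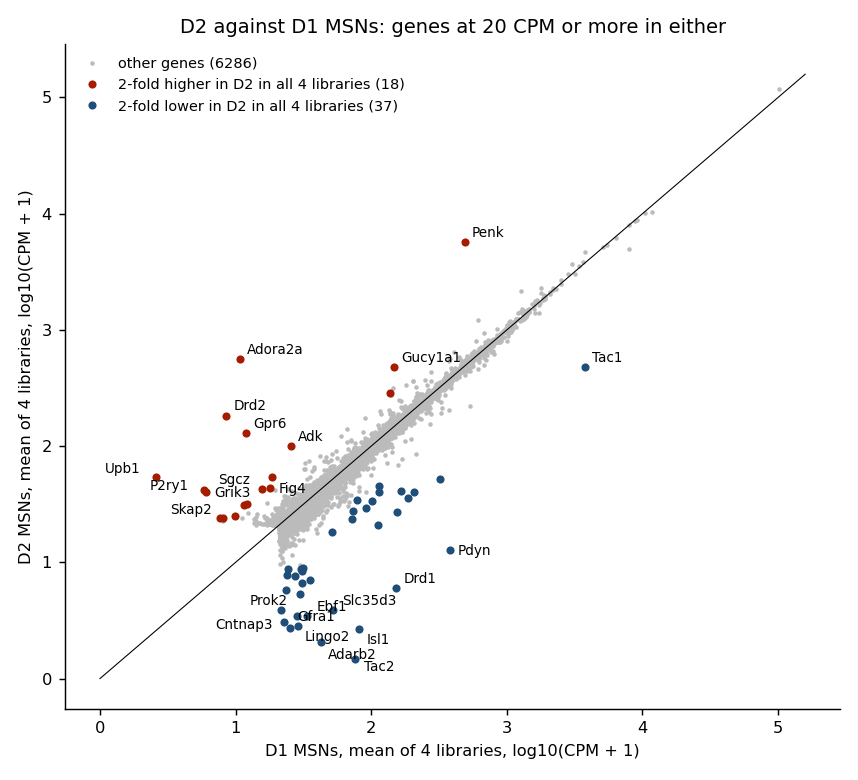
Mean level over 4 libraries in D1 (x) and D2 MSNs (y), as log10(CPM + 1), for the 6341 genes at 20 CPM or more in either type, with the line of equal levels. The 18 genes higher in D2 (red) and 37 lower (blue) lie apart from the band of other genes along that line, and the 12 leading genes of each direction are named.

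Against all 9 other types, 664 of the 10725 genes at 20 CPM or more in some type had their highest mean in D2 cells, 176 of them in all 4 libraries, and D1 MSNs came next for 552 (83.1%). Only 8 of the 664 were at least 2-fold above the next type. Upb1 led with 53.5 CPM against 2.36 in interneurons, a ratio of 22.7. Drd2 (8.32), Penk (7.43), Adora2a (7.38), Gpr6 (5.09), Gucy1a1 (3.28), P2ry1 (2.82) and Fig4 (2.39) followed, then the calcium sensor Hpca (1.98) and the myosin Myo5a (1.94). Upb1 lies 66.3 kb from Adora2a on chromosome 10, and Fig4 lies 115.9 kb from Gpr6 on the same chromosome.

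The promoters of Drd2 and Gpr6 are shown because these receptor genes were among the most D2-restricted, 250 bases up to the RefSeq start (GRCm38.p6), with capitals for a cAMP response element (TGACGTCA) or a GC box (GGGCGG or its reverse complement). The search covered both strands. Drd2 at chr9:49340153-49340402 (+) held 2 GC boxes and Gpr6 at chr10:41072291-41072540 (−) held 1 cAMP response element.
Drd2: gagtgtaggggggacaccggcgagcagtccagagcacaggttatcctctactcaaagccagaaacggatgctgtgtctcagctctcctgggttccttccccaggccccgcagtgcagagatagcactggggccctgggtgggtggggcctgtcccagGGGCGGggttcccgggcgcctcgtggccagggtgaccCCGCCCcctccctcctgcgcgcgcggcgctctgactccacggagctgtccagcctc
Gpr6: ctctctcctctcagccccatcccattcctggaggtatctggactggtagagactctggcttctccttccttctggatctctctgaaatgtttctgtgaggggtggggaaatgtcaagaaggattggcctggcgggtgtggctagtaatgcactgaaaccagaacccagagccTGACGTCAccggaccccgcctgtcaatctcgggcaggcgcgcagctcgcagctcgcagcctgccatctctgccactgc
Of 32851 RefSeq promoter windows of this length, 1.55% held the cAMP response element and 32.7% a GC box. A match of letters is a description and not a binding site.

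Signaling genes that both MSN types express differed by under 2-fold in most cases. None of 32 genes of cAMP and DARPP-32 signaling passed the 2-fold rule in either direction, with a median log2 ratio of 0.09. Ppp1r1b, which encodes DARPP-32, was at 1277, 1853, 1313 and 1250 CPM in D2 cells, and Arpp21, Arpp19 and the calcineurin subunit Ppp3ca averaged 3659, 2145 and 2006 CPM, against 3041, 1276 and 1875 in D1 MSNs. Arpp19 was thus higher in D2, with a log2 ratio of 0.75 ± 0.08. None of the 15 genes of the D2 receptor's Gi and arrestin pathway that reached 20 CPM passed it either, and Gnb1 (559 CPM), Gnb2 (266), Gnao1 (186) and Ppp2ca (175) led them, while the inhibitory G protein gene Gnai1 averaged 37.7 CPM in D2 and 65.7 in D1 MSNs (−0.79 ± 0.24). The Gi-gated potassium channel gene Kcnj6 had a mean of 0.13 CPM in D2 cells and 14.4 in interneurons. Of the 17 MSN identity genes only Foxp2 passed, and Foxp1 and Ptpn5 averaged 650 and 582 CPM. Among transmitter receptors, Grik3 alone of 14 glutamate receptor genes passed, and 0 of 10 GABA-A receptor genes did. The opioid receptor genes Oprd1, Oprm1 and Oprk1 averaged 1.09, 1.77 and 38.8 CPM in D2 cells and 0, 4.14 and 64.7 CPM in D1 MSNs. Of these, the kappa receptor gene Oprk1 alone was above 20 CPM in D2 cells, and it was higher in D1 MSNs. A low count does not show that a receptor is absent.

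D2 cells were not uniform. The annotation holds no D2 subtypes, so the D2 cells were grouped on the authors' 30 integrated components (Leiden, resolution 0.5, chosen after seeing the data), which gave 6 clusters, each present in all 4 libraries. The genes named for a cluster define it and are not tested. Cluster 1 (1035 cells, 39.0 to 45.4% of the D2 cells of a library) was led by Ddit4l, Coch, Nexn, Ccnd2 and Rasgrp2. Cluster 2 (637 cells, 23.6 to 26.9%) was led by Lbhd2, Cpne4, Dner, Cartpt and Gstm7. Crym and Cnr1, which run in opposite gradients across the striatum, stood at 568 and 8.34 CPM in cluster 2 and at 223 and 49.0 in cluster 1. Upb1 was at 113 CPM in cluster 2 and at 28.2 in cluster 1.

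Cluster 4 (172 cells, 6.52 to 7.40%) was led by Tac1, Th, 4930452B06Rik, Hpcal1 and Rab3b. Its Tac1 level was 3563 CPM against 222 in the other D2 cells, close to the mean of 3740 in D1 MSNs, while Drd1 was at 11.02 CPM, Drd2 at 217 and Adora2a at 403. Penk was at 912 CPM there and at 6877 in cluster 1. Of the 15 genes of the striosome and matrix list, 5 were higher in cluster 4 than in the other D2 cells and 10 lower. Tac1, Sema5b (36.2 against 5.72 CPM), Khdrbs3 (100.8 against 24.1), Bach2 (23.6 against 6.09) and Kremen1 (9.45 against 3.23, from 6 UMIs) were the higher ones. The striosome genes Oprm1 (0 UMIs in the cluster, 2.11 CPM in the other D2 cells), Lypd1 (45.7 against 69.4), Pdyn (7.88 against 12.4, from 5 UMIs) and Nnat (416 against 856) were lower. Oprm1 and Pdyn are near the floor. The 6 matrix genes were lower too, among them Sv2b (14.2 against 57.8), though Epha4 was nearly equal (126 against 128). Cluster 6 (128 cells, 4.65 to 6.21%) was led by the calcitonin receptor Calcr, Peg10, Ramp3, Pde1a and Dlk1, with Nts, the neurotensin precursor, at 1016 CPM against 218 in the other D2 cells. Drd2, Adora2a and Upb1 were lowest there among the 6 clusters, at 99.4, 127 and 2.48 CPM. Cluster 5 (148 cells) was led by the activity-regulated genes Btg2, Egr2, Npas4, Fos and Gadd45g and made up 5.62 and 4.39% of D2 cells in WT 1 and WT 2 and 8.66 and 6.98% in Setd1a+/- 1 and Setd1a+/- 2. These shares were not tested, since genes that define the cluster are among those compared between genotypes. Cluster 3 (331 cells, 9.55 to 15.7%) was led by Bhlhe41, Slc39a1, Cbx3, Pdcd4 and Spry2. The median cell of the 6 clusters held between 3044.5 and 3606.5 UMIs.

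**Figure D3:**
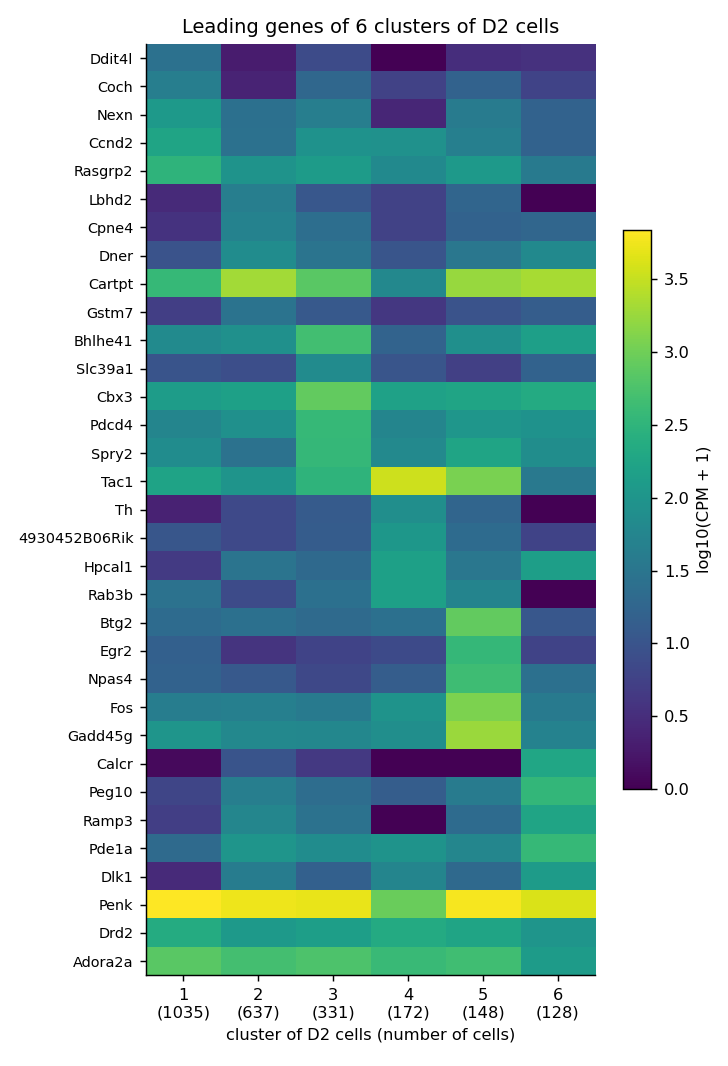
Level of the 5 leading genes of each of 6 clusters of D2 cells, and of Penk, Drd2 and Adora2a, as log10(CPM + 1) in color, with clusters in columns and their number of cells in brackets. Tac1 is brightest in cluster 4, where Penk is lowest, and Btg2, Egr2, Npas4, Fos and Gadd45g are brightest in cluster 5.

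The comparison of genotypes asked whether 1 lost Setd1a allele changed expression in these neurons. Setd1a itself (chr7:127776670-127800122, +), the targeted H3K4 methyltransferase, was at 18.4 and 16.1 CPM in the WT libraries, from 44 and 50 UMIs of D2 cells. It was at 11.7 and 11.4 CPM in the Setd1a+/- libraries, from 15 and 22 UMIs. Both Setd1a+/- libraries were below both WT libraries, and the log2 fold change of −0.52 ± 0.29 (SE) did not pass (edgeR quasi-likelihood test, adjusted p = 1.00, range over alternatives 0.826 to 1.00). The reads are 3′ tags and do not show the frameshift. Of the other H3K4 methylation genes, 0 of 18 reached an unadjusted p under 0.05, which does not set them apart from other genes (background 1.26% higher and 1.24% lower). Its paralog Setd1b was at 22.1 and 24.9 CPM in WT and 38.3 and 23.4 in Setd1a+/-, and Dpy30, Kmt2a, Bod1l and Kmt2d had log2 fold changes between −0.10 and 0.31.

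Of 10081 genes tested, 4 (0.0397%) passed an adjusted p of 0.05 and a fold of 2 (edgeR), and these were the hemoglobin genes of red blood cells. Hbb-bs was at 569 and 682 CPM in WT and 55.5 and 40.0 in Setd1a+/- (log2 fold change −3.68 ± 0.21, adjusted p = 0.000309). Hba-a1, Hba-a2 and Hbb-bt had log2 fold changes of −4.03, −4.88 and −4.18 (adjusted p = 0.00111, 0.00383 and 0.00656), and reads of the near-identical Hba-a1 and Hba-a2 may be split between them. Single cells carried this difference. In WT 1, 1 cell of 676 held 1981 of 2114 hemoglobin UMIs, and in WT 2, 1 cell of 752 held 3357 of 3666. These cells held 43 and 29 Penk UMIs, 0 and 7 of Adora2a and 0 and 1 of Drd2. Without the 3 D2 cells that held 10 or more hemoglobin UMIs, a step added after seeing the data, Hbb-bs was at 38.5 and 65.1 CPM in WT and 55.5 and 40.0 in Setd1a+/-, and 0 genes passed edgeR, with 240 at an unadjusted p under 0.05. Hba-a2 was then at 9.21 and 12.0 CPM in WT and 8.59 and 2.60 in Setd1a+/- (log2 fold change −1.01, adjusted p = 1.00).

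**Figure D4:**
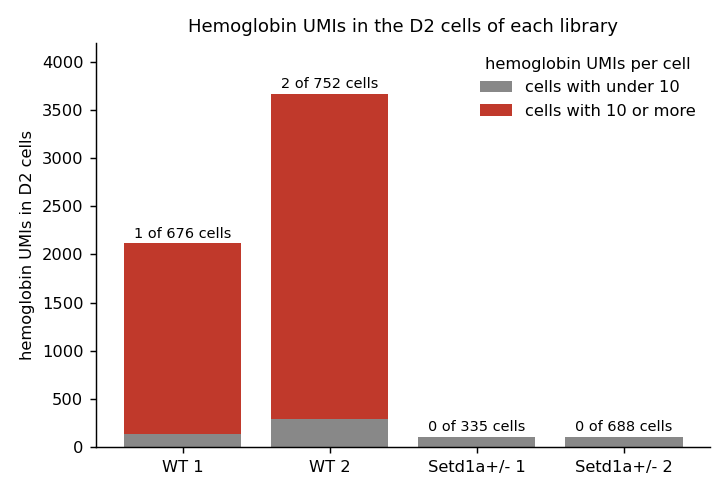
Hemoglobin UMIs (Hbb-bs, Hba-a1, Hba-a2 and Hbb-bt together) in the D2 cells of each library, in cells with under 10 such UMIs (gray) and with 10 or more (red), with the number of the latter above each bar. The red share of the WT bars comes from 1 and 2 cells, and the gray parts are 133, 295, 104 and 106 UMIs.

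At an unadjusted p under 0.05, 127 genes (1.26%) were higher and 125 (1.24%) lower in Setd1a+/- D2 cells. Genes with both Setd1a+/- libraries above both WT libraries made up 11.4% of those tested, and with both below 19.1%. With total UMIs as the only scaling, 70.4% of the genes at an unadjusted p under 0.05 were lower, against 49.6% with TMM factors. By the methods a biological replicate holds 1 library of each genotype. Same-numbered libraries were taken to share a replicate, which neither the labels nor the methods state. With that replicate block, 10 genes (0.0992%) passed with a fold above 2 and 23 (0.228%) at any fold, 11 higher and 12 lower. With so few libraries, this fit takes its spread almost wholly from all genes together. Its small p values therefore do not measure how far the replicate pairs of a gene differ. For Egr2 the SE was 0.21 without the block and 0.23 with it. Outside hemoglobin, the genes with the smallest p were Egr2, Ankrd61, Btg2, Ifi27, Rasl11a and Mast1. With all 4 libraries, none of them passed without the block and with the filter on low counts. All but Mast1 passed with the block, and also without the block when no filter was set. Of the other genes that gained a call with the block, Gadd45g (0.77), Rpgrip1 (0.98), Spry2 (0.66) and Abhd2 (0.73) were higher and Cap1 (−0.997), Pttg1 (−0.96), Gm42418 (−0.70), Nudt19 (−0.67) and Hist1h2bc (−0.55) lower on the log2 scale (edgeR, adjusted p between 6.46e-05 and 0.0268).

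Immediate early genes, which neurons transcribe within minutes of activity, had the highest median log2 fold change of the lists with 5 or more genes tested. Of 21 members 19 were tested, all 19 with a positive log2 fold change and a median of 0.78, against 0.01 over all genes. Both Setd1a+/- libraries were above both WT libraries for 12 of 19 (background 11.4%), and 11 of 19 had an unadjusted p under 0.05 (background 1.26%). These genes are high in the same cells, so the counts do not stand for separate outcomes. The list was also chosen with earlier results of these data known. The methods describe papain digestion of the fresh tissue before the cells were captured. Whether RNA of these genes was made in the animal or during that step was not tested. Egr2, a zinc finger transcription factor, was at 18.4 and 19.7 CPM in WT and 44.5 and 41.6 in Setd1a+/- D2 cells (log2 fold change 1.22 ± 0.21, adjusted p = 0.573 without and 0.000128 with the replicate block, edgeR). Btg2, an antiproliferative factor, was at 55.1 and 42.3 in WT and 109 and 85.8 in Setd1a+/- (1.05 ± 0.20, adjusted p = 0.776 and 5.23e-07). The Setd1a+/- values of both genes were well clear of the WT values. Cluster 5, described above with its share in each library, held much of this RNA, with Egr2 at 364.7 CPM there against 8.65 in the other D2 cells, Btg2 at 829.5 against 21.8 and Gadd45g at 1796 against 79.8. The part of this cluster in the genotype differences was not tested.

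Nr4a1, an orphan nuclear receptor, was at 137 and 106 CPM in WT and 298 and 159 in Setd1a+/- (0.94 ± 0.27, adjusted p = 6.93e-07 with the replicate block). The AP-1 gene Fosb was at 15.4 and 13.6 in WT and 44.5 and 22.4 in Setd1a+/- (1.20 ± 0.33, 0.00262 with the block), and Fos at 103 and 77.5 in WT and 191 and 111 in Setd1a+/- (0.78 ± 0.25, 0.000388 with the block). Without the block the adjusted p of Nr4a1, Fosb and Fos was 1.00, and with no filter on low counts it was 0.00284 for Nr4a1 and 0.0155 for Fosb. In these genes Setd1a+/- replicate 1 was the highest library and Setd1a+/- replicate 2 lay nearer to WT. Without Setd1a+/- replicate 1 the log2 fold changes of Nr4a1, Fosb and Fos were 0.47, 0.70 and 0.38, and without Setd1a+/- replicate 2 they were 1.31, 1.64 and 1.11, which passed (edgeR, adjusted p = 0.00621, 0.0364 and 0.0485). Fosl2, Jun, Junb, Egr4, Dusp1 and Atf3 had unadjusted p under 0.05 and log2 fold changes of 0.45 to 1.35, and none passed with the block. With 1 library left out, Fosl2 ranged from 0.58 to 1.14, Jun from 0.66 to 1.02 and Junb from 0.33 to 0.58. Egr4 then ranged from 0.40 to 1.14, Dusp1 from 0.61 to 0.996 and Atf3 from 0.87 to 1.94. Jund (0.00 ± 0.22), Npas4 (0.18 ± 0.22), Arc (0.33 ± 0.19), Homer1 (0.30 ± 0.20) and Egr1 (0.41 ± 0.35) had the smaller effects.

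Counted by cell after thinning to 2000 UMIs, 6.45% of D2 cells of WT 1 and 5.49% of WT 2 held 10 or more UMIs of the list, against 14.2% of Setd1a+/- 1 and 8.65% of Setd1a+/- 2. The intervals of WT 1 (4.79 to 8.63%) and Setd1a+/- 2 (6.67 to 11.1%) overlapped. At 5 or more UMIs the shares were 17.6, 11.7, 26.5 and 13.2% in the same order, so Setd1a+/- 2 lay below WT 1 and the genotypes overlapped. At 20 or more UMIs they were 1.26, 1.79, 4.19 and 4.24%, so both Setd1a+/- libraries lay above both WT libraries. The interval of WT 2 (1.05 to 3.03%) overlapped those of Setd1a+/- 1 (2.47 to 7.04%) and Setd1a+/- 2 (2.91 to 6.14%). The interval of WT 1 (0.639 to 2.46%) lay below those of both Setd1a+/- libraries, only just so for Setd1a+/- 1. The shares at 20 or more UMIs rest on 8, 13, 13 and 26 cells in the same library order. All these intervals cover counting error within a library. They do not measure the spread between libraries and are no test of genotype. A UMI of Gadd45g was found in 14.0 and 12.5% of thinned WT cells and in 12.3 and 13.5% of Setd1a+/- cells, which also overlap, whereas Egr2 was found in 2.99 and 2.88% and in 7.10 and 4.89%. In thinned D1 MSNs the shares of cells with 10 or more UMIs of the list were 3.93, 3.64, 3.65 and 3.14% in the same library order, and the genotypes overlapped. The summed level of the list in D2 cells was 1383, 1162, 2172 and 1510 CPM in WT 1, WT 2, Setd1a+/- 1 and Setd1a+/- 2. It was also higher in both Setd1a+/- libraries in D1 MSNs (967, 939, 1169 and 970), interneurons (845, 617, 1373 and 1011) and astrocytes (323, 308, 496 and 860), and lower in both in endothelial cells (12770, 14640, 11630 and 11770).

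**Figure D5:**
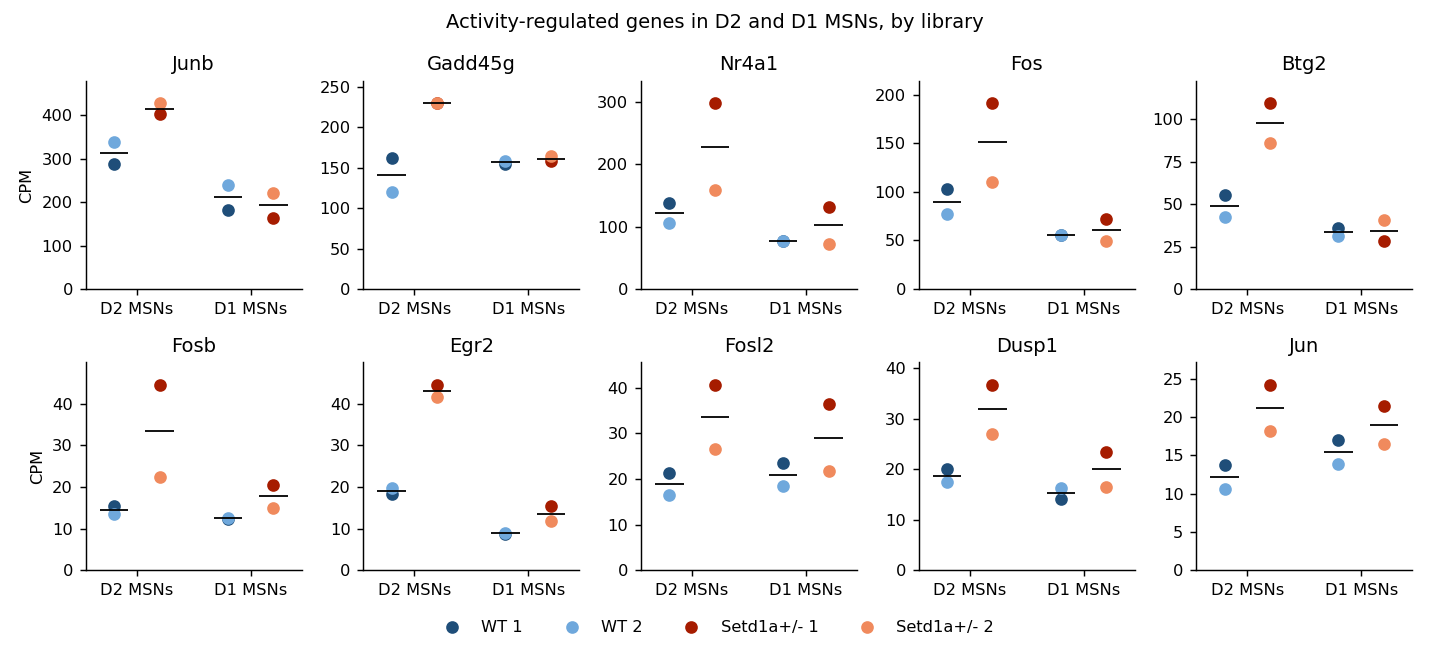
Level in CPM of 9 immediate early genes and Gadd45g in D2 and D1 MSNs, with 1 point per library (WT blue, Setd1a+/- red and orange) and a bar at the mean of 2 libraries. The genes were picked from those whose Setd1a+/- points both lie above both WT points in D2 MSNs, as 12 of the 19 list genes tested do, so this order is by choice. In D1 MSNs the same order holds for Fosb, Egr2 and Dusp1, and the points of the genotypes overlap for the other genes.

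Whether the genotype effect differed between the MSN types was tested directly, with each library as a block. Of 10989 genes, 9 (0.0819%) passed an adjusted p of 0.05 and 491 (4.47%) an unadjusted p of 0.05. Beside the 4 hemoglobin genes these were Gadd45g, Junb, Btg2, Scg2 and Ptgds. This fit also takes its spread almost wholly from all genes together, so its p values do not measure the spread of a gene between libraries. Its smallest adjusted p (edgeR) was 1.36e-160, for hemoglobin, which few cells carried. Gadd45g, a stress and activity gene linked to DNA demethylation, was at 162 and 120 CPM in WT and 230 and 230 in Setd1a+/- D2 cells, and at 155 and 159 in WT and 158 and 164 in Setd1a+/- D1 cells (difference of log2 effects 0.69 ± 0.12, adjusted p = 5.59e-06). Junb, an AP-1 gene that overlaps Prdx2 on the opposite strand, was at 288 and 339 in WT and 402 and 428 in Setd1a+/- D2 cells, and at 182 and 240 in WT and 163 and 222 in Setd1a+/- D1 cells (0.53 ± 0.09, adjusted p = 4.03e-05). Btg2 differed by 0.92 ± 0.20 (adjusted p = 0.00667), with 35.9 and 31.04 CPM in WT and 28.0 and 40.4 in Setd1a+/- D1 cells. For Gadd45g, Junb and Btg2 both Setd1a+/- libraries lay above both WT libraries in D2 cells, and the genotypes overlapped in D1 cells. With 1 library left out, the difference for Btg2 was 0.56 without Setd1a+/- replicate 1 and 1.44 without Setd1a+/- replicate 2, and for Gadd45g it was 0.43 without WT replicate 2.

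Scg2, a granin of secretory vesicles, had a difference of 0.29 ± 0.06 (adjusted p = 0.00497), and its D2 levels of 822 and 693 CPM in WT and 1166 and 693 in Setd1a+/- overlapped. Ptgds, a prostaglandin synthase of oligodendrocytes and meninges, had −0.83 ± 0.20 (adjusted p = 0.0467), and its D2 levels of 86.8, 35.8, 82.0 and 12.0 CPM followed the replicate number, as the oligodendrocyte markers did. The difference for Ptgds was −1.42 without WT replicate 1. Of the 20 immediate early genes in this test, 2 passed (background 0.0819%) and 8 had an unadjusted p under 0.05 (background 4.47% in both directions together), all toward a larger effect in D2 cells. In D1 cells 17 of 20 had a positive log2 fold change, with a median of 0.31 against 0.78 in D2 cells. There 6 of 20 had both Setd1a+/- libraries above both WT libraries (background 10.6%). Without the library block 0 genes passed edgeR and 83 had an unadjusted p under 0.05, and without cells of 10 or more hemoglobin UMIs the 4 that passed with the block were Gadd45g, Junb, Scg2 and Btg2.

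The other genes among the 10 smallest p values were outside the immediate early list. Ankrd61, which shares its locus with Eif2ak1 on the opposite strand, was at 5.84 and 7.42 CPM in WT and had 0 UMIs in both Setd1a+/- libraries, at least 7.08-fold lower against a floor of 3 UMIs over the Setd1a+/- D2 cells. Ifi27, an interferon-induced gene, was at 51.8 and 42.9 in WT and 18.0 and 21.8 in Setd1a+/- (−1.18 ± 0.23, adjusted p = 0.872 without and 0.000381 with the replicate block). Rasl11a, a small GTPase, was at 5.43 and 2.58 in WT and 22.7 and 13.5 in Setd1a+/- (2.21 ± 0.45, adjusted p = 0.908 and 3.07e-05), and Mast1, a kinase, at 5.43 and 6.13 in WT and 0.781 and 0.52 in Setd1a+/-. Each of the 4 had both Setd1a+/- libraries on 1 side of both WT libraries.

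The genes that make these cells D2 MSNs did not pass in either direction. The log2 fold changes of Drd2, Adora2a and Penk were 0.06 ± 0.17, −0.15 ± 0.15 and −0.01 ± 0.18 (edgeR, adjusted p = 1.00 each). Both Setd1a+/- libraries were below both WT libraries for Adora2a, and the groups overlapped for Drd2 and Penk. The cells were grouped and named by such genes, so a cell that had lost them might not be counted as D2. The comparison within D2 cells cannot show such a loss. Of 8 D2-pathway, 17 MSN identity, 20 Gi and arrestin pathway, 13 striosome and matrix, 4 opioid and tachykinin, 15 glutamate receptor, 30 vesicle release and 18 glycolysis genes tested, 0 had an unadjusted p under 0.05 (background 1.26% higher and 1.24% lower), so these counts do not set the lists apart from other genes. The list medians were between −0.16 and 0.16. The cAMP list had 1 of 32 at an unadjusted p under 0.05, Prkaca, the catalytic subunit of protein kinase A, at 46.8 and 41.6 CPM in WT and 52.3 and 64.0 in Setd1a+/-. In the potassium channel list 17 of 21 genes had a positive log2 fold change (median 0.14) and 7 had both Setd1a+/- libraries above both WT libraries (background 11.4%). The Gi and arrestin list had 17 of 20 positive (median 0.16) and 5 with both above. The glutamate receptor list had 12 of 15 positive (median 0.13) and 1 with both above. The potassium channel list had 1 of 21 at that p, Kcnj2, at 5.43 and 11.9 in WT and 12.5 and 21.3 in Setd1a+/-. The regional list had 1 of 9, Dlk1, at 27.6 and 27.1 in WT and 17.2 and 17.7 in Setd1a+/-. Gabra2, a GABA-A receptor subunit and 1 of 11 tested, was at 162 and 141 CPM in WT and 202 and 239 in Setd1a+/- (0.59 ± 0.17, adjusted p = 1.00 without and 0.0153 with the replicate block).

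Highly expressed members of these lists had small effects. In D2 cells Pkm, Ldhb, Gapdh and Tpi1, enzymes of glycolysis, had log2 fold changes of −0.10, 0.07, −0.02 and −0.11, and the vesicle genes Snap25, Rab3a, Syt1 and Cplx2 had 0.02, −0.27, −0.17 and 0.25. Gria2, Grin2b, Grm5 and Gria1, glutamate receptor genes, had 0.13, 0.14, 0.05 and 0.17. The study itself chose genes for D2 MSNs from these samples, which makes their direction no independent evidence. Of those it names, 4 have a symbol in the matrices, 2 others match no symbol as written and were left out, and 0 of the 4 passed. The study tested single cells and the test here used library sums, so the 2 outcomes are not like for like. For 3 of the 4, both Setd1a+/- libraries were below both WT libraries (background 19.1%). Rab42 was at 9.60 and 8.71 CPM in WT and 4.69 and 3.12 in Setd1a+/- (edgeR, unadjusted p = 0.0213). Letm2, Ppp1r13b and Pak6 had log2 fold changes of −0.48, −0.56 and −0.34.

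Markers of other cell types were low in D2 cells and did not pass between genotypes. The summed markers of astrocytes, microglia, endothelial cells, oligodendrocyte progenitors, newly formed oligodendrocytes, neuroblasts and interneurons stood at 0.175 to 1.95% of their level in their own type. The D1 marker list stood at 11.5% of its level in D1 MSNs, and Tac1 made up most of it. Cortical excitatory markers summed to 1.56 to 4.59 CPM. Apoe, an astrocyte gene, was at 51.8, 34.5, 33.6 and 12.0 CPM in WT 1, WT 2, Setd1a+/- 1 and Setd1a+/- 2 (−0.95, adjusted p = 1.00 without and 0.0169 with the replicate block). Its log2 fold change was −1.76 without Setd1a+/- replicate 1 and −0.33 without Setd1a+/- replicate 2. Ctss of microglia had a log2 fold change of 1.19.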

How the data were processed

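The authors deposited raw UMI counts per gene and barcode for each library (Cell Ranger 3.0.2 and mm10 per the labels' processing notes), not normalized, and a table of annotated cells with other information (library, cell type), the authors' counts of UMIs and genes, the percent of mitochondrial UMIs, and scores on 30 integrated components (Seurat 3.2.0). Cells had been filtered by the authors; no doublet step was found in the methods, and none was added. Barcodes were matched by library. UMIs of D2 cells were summed per library (n = 2 per genotype, each a separate pool of mice) and tested with edgeR 4.0.16 (quasi-likelihood test with TMM factors, genes kept by filterByExpr at a minimum of 10 counts, p adjusted after Benjamini-Hochberg) in R 4.3.3, as was the interaction with D1 cells, with the library as a block. DESeq2 1.42.0 was an alternative. Precision is set by the UMIs of a gene in a library; intervals are 95% and cover counting error only. DEsingle, the study's test over cells, was left out. The genotype test without a block and the interaction test were tried on simulated counts. These gave all genes 1 spread and held no variation shared within a replicate or library. The fit with the replicate block was not tried in this way.

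By the methods, a biological replicate holds 1 library per genotype. The deviations of same-numbered D2 sums from their genotype means correlated at 0.353 over 10081 genes. D2 against D1 is given with no test. Descriptions used Python 3.11.15 (numpy 2.4.6, scipy 1.17.1, pandas 2.3.3); thinning used 2000 UMIs per cell, and clustering leidenalg with 20 neighbours. Coordinates are from GENCODE vM21 (30934 of 31053 gene IDs found). The cells, gene lists and rules were chosen with earlier results of these data known. Named are up to 4 list members by D2 level and those past a threshold, 12 genes in each direction against D1, 10 against all types, the called genes or the 10 smallest p, and 5 leading genes per cluster. PFC libraries were not analysed here, and the authors' expression tables were not used because their gene column holds row numbers. Some genes of the lists are not reported here.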

Additional observations from a re-analysis of the deposited data

Results flagged for a closer look

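The genotype effect differed between D2 and D1 MSNs for 9 genes by the interaction test with a library block (D2 effect minus D1 effect, log2). For the hemoglobin genes it was −3.55 for Hbb-bs, −4.71 for Hba-a1, −3.93 for Hba-a2 and −4.21 for Hbb-bt. With 1 library left out it ranged from −4.49 to −1.39 for Hbb-bs, −6.13 to −1.06 for Hba-a1, −5.49 to −0.65 for Hba-a2 and −6.16 to −1.78 for Hbb-bt. The values nearest 0 were those without Setd1a+/- replicate 2, where Hba-a1, Hba-a2 and Hbb-bt no longer passed. Hemoglobin counts of 10 or more UMIs were also held by 2 D1 cells of WT 1, 3 of WT 2, 0 of Setd1a+/- 1 and 5 of Setd1a+/- 2. The difference was 0.69 for Gadd45g, 0.53 for Junb, 0.92 for Btg2, 0.29 for Scg2 and −0.83 for Ptgds. Gadd45g passed under 6 of 9 alternatives, Junb under 5, Btg2 and Scg2 under 4 and Ptgds under 3, and none of the 9 genes passed without the library block.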

How the results depend on the processing

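With WT and Setd1a+/- the count of genes past both thresholds in D2 cells was 4, and 10 with the replicate block, 13 with no filter, 0 without the cells of 10 or more hemoglobin UMIs (6 with the block) and 6 to 12 with 1 library left out (12 without WT replicate 1, 9 without WT replicate 2, 6 and 9 without Setd1a+/- replicates 1 and 2). It stayed at 4 with RLE or total UMIs, DESeq2, lower fold cutoffs, and without Drd1-positive cells or mitochondrial and ribosomal genes. No D2 cell met the limit of 3 times the median UMIs. A library left alone in its genotype was assumed to vary as the other pair did. The interaction count of 9 fell to 0 without the library block, also without hemoglobin-rich cells, to 4 without those cells with the block, and ranged from 4 (without WT replicate 2) to 17 (without Setd1a+/- replicate 2). Without those cells, with and without a block, Hba-a1 turned to 0.095 and 0.10 and Hbb-bt to 0.22 and 0.24 in D2, while Hbb-bs (−0.11 and −0.10) and Hba-a2 (−1.03 and −1.01) kept their sign and did not pass. For the difference from D1 all 4 turned sign, Hbb-bs to 0.33 and 0.33, Hba-a1 to 0.063 and 0.077, Hba-a2 to 0.36 and 0.35, and Hbb-bt to 0.66 and 0.64. D2 against D1 gave 35 and 86 genes at 1.5-fold, 7 and 18 at 4-fold, 81 lower at 5 CPM, and 9 and 20 at 50 CPM, where fewer genes enter. The D2 share difference of 1.14 points was −0.67 among MSNs and interneurons and −8.23 to 10.5 with a library left out. Setd1a stayed negative throughout. Beyond the genes named with the block, it changed no other call.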

Other observations

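Cluster 3 of the D2 cells, 331 cells present in all 4 libraries, held Actb, the cytoplasmic actin gene, at 9208 CPM against 1960 in the other D2 cells and 2824 in D1 MSNs, and Cbx3, a heterochromatin protein gene, at 824 against 147. Marf1, Rbm15 and Slc24a5 were 5.39, 6.61 and 5.07 times higher there. Its median cell held 3583 UMIs and 1718 genes, within the range of the other clusters, and its Drd2, Adora2a and Penk levels were 143, 572 and 5058 CPM. These genes define the cluster, and no test was made.

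Gm8797 was at 47.2 and 45.3 CPM in the replicate 1 libraries of WT and Setd1a+/- D2 cells and at 376 and 358 in the replicate 2 libraries. Among the 9424 genes with enough UMIs to enter this count, it was the 1 gene over 4-fold higher in both replicate 2 libraries. Of these genes, 0 were over 4-fold higher in both Setd1a+/- libraries and 4 in both WT libraries, the hemoglobin genes Hbb-bs, Hba-a1, Hba-a2 and Hbb-bt. Ankrd61 and Mast1 had too few UMIs to enter it.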
